A study of Mus musculus with 31 samples.

Results

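Clustered histone genes were followed in Ba/F3 cells, a mouse lymphoid line that grows on interleukin-3. The members were all gene symbols starting with Hist1h, Hist2h, Hist3h or Hist4h that were listed in both deposited tables and had a mean of at least 1 normalized count over the total mRNA libraries. Of 70 such symbols among 41255 in all, 32 met this level, comprising 5 genes for H1, 6 for H2A, 9 for H2B, 4 for H3 and 8 for H4. The mean level in total mRNA therefore chose the members and is given as a description only. Every culture carried an shRNA against endogenous Rpl10 and expressed human RPL10, a protein of the large ribosomal subunit, from a retroviral vector, either wild type (WT) or with the R98S change found in T-cell leukemia. The R98S cultures came from clones 11, 13 and 35 and the WT cultures from clones 28, 29 and 36, each a monoclonal culture. The sample titles carry replicate numbers 1 to 3, and the labels do not say whether these mark separate cultures or repeated preparations. Each clone with a number is called a culture below. Poly(A)-selected RNA was sequenced from whole cells (total mRNA, 9 R98S and 8 WT libraries) and from gradient fractions holding mRNA with several ribosomes (polysomal RNA, 8 R98S and 6 WT libraries).

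Clustered histone genes supply the H1, H2A, H2B, H3 and H4 proteins that package newly made DNA. Their main transcripts have no intron and no poly(A) tail. They end at a short stem-loop that is bound by Slbp, the stem-loop binding protein, which guides 3′ end cutting, export and translation and is itself restricted to the time of DNA synthesis. Some of these genes also give longer, polyadenylated transcripts that read through the stem-loop to a downstream poly(A) signal, as is known for Hist1h1c and Hist1h2bc. Libraries made by poly(A) selection therefore keep the second kind of transcript and lose most of the first. From general knowledge 6 members were set apart as genes with known polyadenylated forms: Hist1h1c, Hist1h2bc, Hist1h2be, Hist2h2be, Hist3h2a and Hist4h4. They are called the listed members below, and the remaining 26 the other members.

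The stem-loop was searched as 6 paired bases on each side of a 4-base loop. The first side had to read GG, then pyrimidines, then T, and every base had to pair. A stem-loop with other letters would be missed. Of the 32 members, 27 held this form in an annotated transcript (mm10, GENCODE M21). Of these, 16 shared the letters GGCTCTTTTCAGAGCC, and the H4 genes used variants of their own. The sequences below show the listed members in which it was found, the members on which the later results turn, and each variant. Capitals mark the stem and loop within 26 bases, 5′ to 3′.
Hist1h1c, chr13:23739507-23739532, plus strand: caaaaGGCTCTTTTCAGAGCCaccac
Hist1h2be, chr13:23585526-23585551, minus strand: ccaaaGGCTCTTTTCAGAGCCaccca
Hist3h2a, chr11:58955167-58955192, plus strand: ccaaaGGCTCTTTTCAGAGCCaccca
Hist4h4, chr6:136803993-136804018, minus strand: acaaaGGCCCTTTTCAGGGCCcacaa
Hist1h4i, chr13:22040961-22040986, minus strand: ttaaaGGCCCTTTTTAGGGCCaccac
Hist1h1d, chr13:23555782-23555807, plus strand: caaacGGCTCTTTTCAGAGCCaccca
Hist1h1e, chr13:23621777-23621802, minus strand: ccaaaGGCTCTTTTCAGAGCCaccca
Hist1h4b, chr13:23757361-23757386, plus strand: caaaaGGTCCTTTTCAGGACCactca
Hist1h2bb, chr13:23747198-23747223, plus strand: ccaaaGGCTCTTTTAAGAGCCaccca
Hist1h3g, chr13:23535884-23535909, plus strand: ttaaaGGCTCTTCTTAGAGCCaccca
Hist1h4i shared its stem-loop with Hist2h4, Hist4h4 with Hist1h4d and Hist1h4h, Hist1h4b with Hist1h4j, and Hist1h2bb with Hist1h2bk and Hist1h3e, whereas the form in Hist1h3g was found in that gene alone. No stem-loop of the searched form was found in the annotated transcripts of Hist1h1a, Hist1h1b, Hist1h2bc, Hist1h4k and Hist2h2be, and the models of Hist1h1b and Hist1h4k end at the stop codon.

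The annotated transcript ended within 50 bases of the stem-loop in 9 members and ran past it, or had an intron, in 19. Hist1h1c, the H1.2 linker histone, lies on chr13:23738808-23740367 without an intron. Its stem-loop begins after 24 bases of the part that follows the stop codon, and 840 further bases follow the stem-loop to the end with an AATAAA signal. The transcript of Hist1h2bc (H2B, chr13:23684199-23692908) has 2 exons. Hist2h2be (H2B, chr3:96221119-96223738) has 2192 bases after its stop codon. Hist3h2a (H2A) runs 1643 bases past its stem-loop and shares 33.0% of its exonic bases with Trim17 on the same strand, so reads there cannot be assigned to either gene. Hist1h1e (H1.4) shares 25.7% with a transcript of Hist1h2be on the same strand. Many members are near-identical: 78.9% of all 50-base windows of Hist1h2ag, 75.9% of those of Hist1h4b and 28.9% of those of Hist1h4i also occur in another gene, against 8.54% for Hist1h1c, and reads that fit several genes were dropped by the mapping quality filter of the study. Levels of members of this kind are uncertain.

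Reads per library ranged from 8831180 to 22059792. All members together held 620 to 1330 reads in WT and 1306 to 4194 in R98S libraries of total mRNA. Of 12 lymphoid marker genes 6 had a mean of at least 10, whereas Pax5 and Il7r were at 0 in total mRNA, and of 5 markers of other cell types Hbb-bs had the highest mean, at 13.95, or 4.38 without 1 R98S library at 167. The polysomal libraries with replicate number 3 stood apart from those with numbers 1 and 2 in both genotypes: with genotype in the model, 64.1% of genes with a mean of at least 1 differed at an adjusted p under 0.1 in polysomal RNA, against 5.51% in total mRNA. The main polysomal results are therefore given with and without number 3. Each genotype was represented by 3 clones, so libraries of a clone are repeats of that clone, and p-values over libraries measure the spread between libraries. The study excluded number 1 of WT clone 36 from total mRNA because it grouped with R98S samples in a principal component analysis. It was not analysed here, so the choice of WT libraries depended partly on their difference from R98S.

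In total mRNA the level was concentrated in few members. The listed members held 83.1 to 94.9% of the summed normalized counts of all members in the 17 libraries. Per kilobase of exon, the mean level was 685 normalized counts for Hist1h1c, 168 for Hist2h2be, 87.2 for Hist1h2bc, 55.0 for Hist1h4i, 18.4 for Hist1h2bg, 12.3 for Hist1h1b and 10.1 for Hist1h4k. These were the only members above 10 on this scale. Without division by length, the 10 highest members were Hist1h1c (1069 normalized counts), Hist2h2be (439), Hist1h2bc (101), Hist1h4i (40.0), Hist1h2be (35.7), Hist1h1d (19.9), Hist3h2a (14.5), Hist1h2bg (11.4), Hist1h1b (9.13) and Hist1h2ae (6.23). Hist4h4 was at 2.05 and was the only listed member below 10. At the threshold, Hist1h2ab (1.07) and Hist1h2bj (1.05) lay just inside and Hist1h2bm (0.974) and Hist3h2bb-ps (0.894) just outside. Of 14 pairs of clustered histone genes that start close together on opposite strands, 12 had reads for both genes, and the levels of 7 of these lay within 3-fold of each other, as for Hist1h2ae and Hist1h2bg (6.23 and 11.4). In 3 pairs they lay over 10-fold apart, as for Hist1h2ac and Hist1h2bc, which start 251 bases apart with 1.15 and 101 normalized counts, and for Hist2h2ac and Hist2h2be, which start 239 bases apart with 0.597 and 439. Of the 38 symbols below the threshold, 9 had no read in any library.

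The next comparison asked whether members differed between R98S and WT clones in total mRNA. Over all 32 members, 26 had a higher mean in R98S, but 6 of them (Hist1h2ac, Hist1h2ad, Hist1h2bj, Hist1h3e, Hist1h4d and Hist2h3c2) reached a mean of 1 only through R98S, which fixed their direction. Of the 26 that reached it in both genotypes, 20 were higher in R98S, as were 49% of all symbols selected in this way. With limma on log2(normalized count + 1), 6 members (Hist1h1c, Hist1h2bc, Hist1h1d, Hist2h3c2, Hist3h2a and Hist1h4i) were called higher at an adjusted p under 0.1, against a background of 12.5% of genes, and none was called lower. Hist2h3c2 entered only through R98S. The count lies not far above the background, and nothing about the members as a group is read from it. With genes of a mean of at least 10, the filter of the other fits below, 5 of 8 members were called higher (background 14.5%), but Hist3h2a, which was called, and Hist1h2bg, which was not, had WT means under 10 and passed that filter through R98S, so the count is not support. No member had every R98S library above every WT library in total mRNA, where 2.07% of genes did. In bulk RNA a larger share of cells with these transcripts and more of them per cell cannot be told apart.

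Among the 5 linker histone members, which bind DNA between nucleosomes, Hist1h1c and Hist1h1d were called higher. The total mRNA level of Hist1h1c was 640, 1501 and 2985 normalized counts (lowest, median and highest) in the 9 R98S libraries and 211, 431 and 747 in the 8 WT libraries. The groups overlapped only between 640 and 747. The mean was 1607 ± 852 (SD, n = 9) against 463 ± 198 (SD, n = 8), and the change was 1.73 on the log2 scale (SE 0.32, adjusted p = 7.7e-04 by limma). By clone, the means were 2189, 861 and 1771 in R98S clones 11, 13 and 35, and 527, 305 and 602 in WT clones 28, 29 and 36. Hist1h1d (H1.3) was at 14.5, 20.4 and 66.7 in R98S and at 1.07, 11.5 and 19.2 in WT, overlapping groups with a change of 1.51 on the log2 scale (SE 0.46, adjusted p = 0.024 by limma). Hist1h1b (H1.5) was at 4.01, 11.0 and 23.8 in R98S and at 0, 6.62 and 13.7 in WT and was not called. Nor were Hist1h1a, with a mean of 2.97 against 4.01, and Hist1h1e, with 6.17 against 5.03 (log2 fold changes −0.25, SE 0.32, and 0.21, SE 0.38).

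Of the core histone members tested at a mean of at least 10, Hist1h2bc showed the largest change. This H2B gene was at 61.0, 121 and 225 normalized counts in R98S total mRNA and at 14.4, 43.8 and 82.3 in WT, with a change of 1.76 on the log2 scale (SE 0.31, adjusted p = 5.6e-04 by limma). Its clone means were 215, 89.6 and 148 in R98S clones 11, 13 and 35 and 63.7, 25.9 and 43.8 in WT clones 28, 29 and 36. The other H2B members did not pass the test in total mRNA: Hist2h2be was at 291, 480 and 865 in R98S and 230, 352 and 531 in WT (a change of 0.41 on the log2 scale with an SE of 0.20, adjusted p = 0.146 by limma), Hist1h2be differed by 0.57 (SE 0.30, adjusted p = 0.183) and Hist1h2bg by 0.33 (SE 0.51, adjusted p = 0.691). Hist3h2a, an H2A gene outside the main cluster, was at 9.92, 17.9 and 48.2 in R98S and 3.29, 7.01 and 15.4 in WT (a change of 1.13 on the log2 scale with an SE of 0.32, adjusted p = 0.0175 by limma). Hist1h4i, the most abundant H4 member, was at 35.0, 49.1 and 69.5 in R98S and 17.5, 27.2 and 54.9 in WT (a change of 0.85 on the log2 scale with an SE of 0.22, adjusted p = 0.0088 by limma). Hist2h3c2 (H3) had a mean of 2.11 against 0.251 normalized counts, with a median of 0 in WT, and 63.5% of its windows occur in another gene (log2 fold change 1.20, limma adjusted p = 0.029, fitted with genes down to a mean of 1). It is a member, and entered this fit, only through R98S, so the p is not support. The 5 calls at a mean of at least 10 were also made on clone means (3 against 3 clones, background 13.2%) and with the replicate block (background 18.5%). They were made by edgeR and DESeq2 on recovered reads too (background 14.7% for each). Among them Hist3h2a passed that filter only through R98S, so its repeated calls are not support. Without replicate 3, when 5.99% of genes were called higher, Hist1h4i was not called (adjusted p = 0.142), and Hist1h1d was not called without replicate 2 (adjusted p = 0.133) or without clone R98S11 (adjusted p = 0.108).

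**Figure D1:**
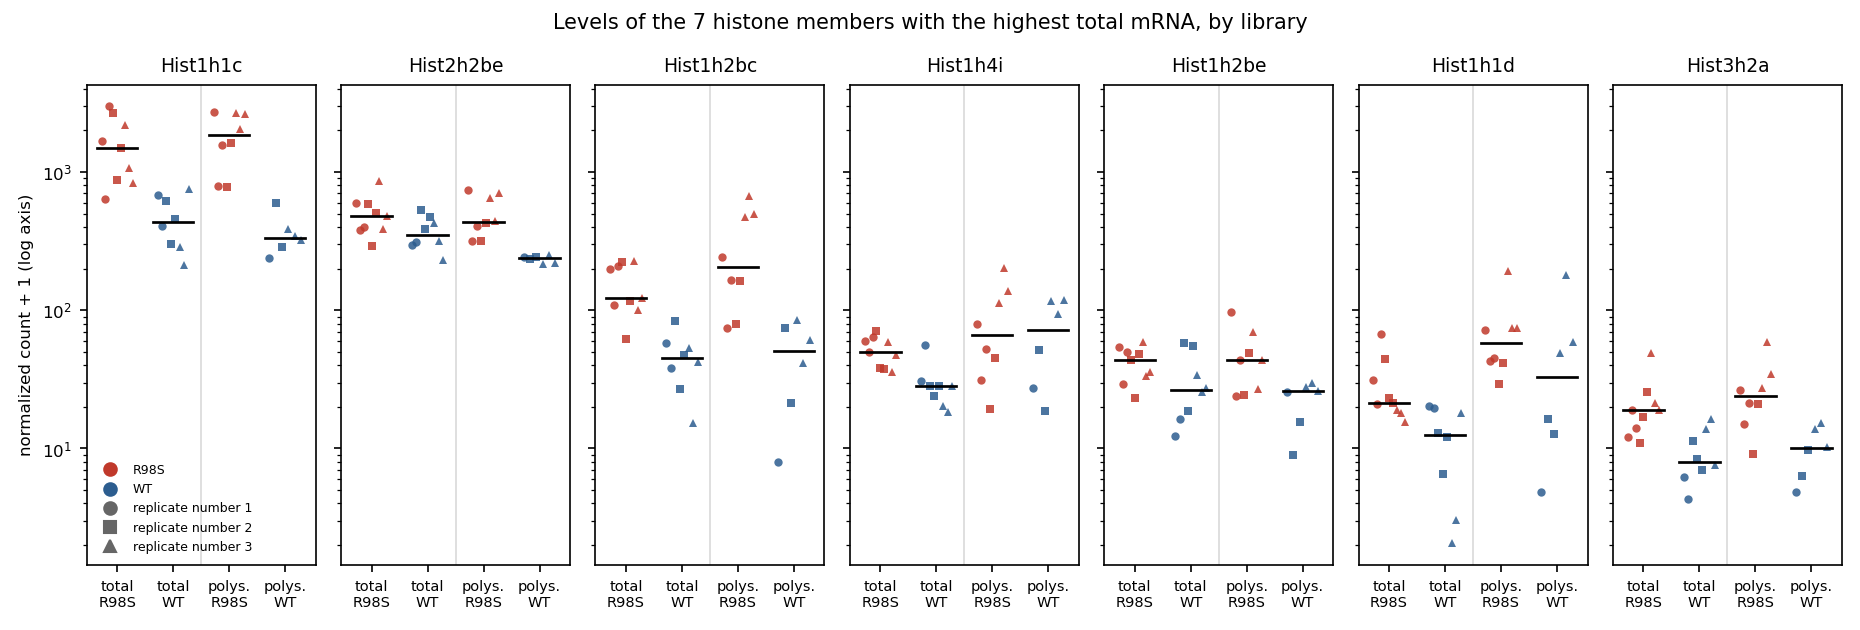
Normalized count + 1 (log axis) of the 7 members with the highest total mRNA level in each total and polysomal library, by genotype (colour) and replicate number (symbol), with black lines at the group medians. Hist1h1c and Hist1h2bc lie higher in R98S in both fractions, and polysomal Hist1h4i, Hist1h1d and Hist1h2bc lie highest in libraries of number 3.

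The same comparison was made in polysomal RNA, where 4 members were called higher in R98S and none lower (background lower 5.87%). All 4 were listed members: Hist1h1c, Hist1h2bc, Hist2h2be and Hist3h2a. They were the same 4 of 14 tested at a mean of at least 10 (background 7.66%) and of all 32 members at a mean of at least 1 (background 8.03%), and none of the 26 other members was called. Hist1h1c was at 772, 1838 and 2722 normalized counts (lowest, median and highest) in the 8 R98S libraries and at 238, 331 and 600 in the 6 WT libraries. Every R98S library was thus above every WT library, as for Hist2h2be and for 3.04% of all genes tested, and the change was 2.27 on the log2 scale (SE 0.32, adjusted p = 1.9e-04 by limma). Hist2h2be was at 315, 435 and 744 in R98S and between 214 and 248 in all 6 WT libraries, with a change of 1.02 on the log2 scale (SE 0.21, adjusted p = 0.0049 by limma). Hist1h2bc was at 73.3, 204 and 666 in R98S and 6.93, 50.1 and 83.4 in WT (a change of 2.58 on the log2 scale with an SE of 0.60, adjusted p = 0.0117 by limma). Hist3h2a was at 8.09, 23.1 and 57.8 in R98S and 3.85, 9.02 and 14.4 in WT (a change of 1.33 on the log2 scale with an SE of 0.40, adjusted p = 0.0463 by limma), and it reached a mean of 10 only through R98S.

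Of the members that were not called in polysomal RNA, Hist1h2be was nearest, at 23.1, 42.4 and 96.4 normalized counts in R98S and 7.99, 24.9 and 28.8 in WT (a change of 1.03 on the log2 scale with an SE of 0.37, adjusted p = 0.105 by limma). With the replicate number as a block, which pairs cultures of a number, Hist1h2be (adjusted p = 0.049) and Hist1h1d (log2 fold change 1.34, adjusted p = 0.034) were also called, for 6 of 14 members against a background of 15.2%. By edgeR (background 7.08%) and DESeq2 (background 9.32%) on recovered reads 5 were called, with Hist1h2be added to the 4. Under quantile normalization Hist3h2a was lost. Without replicate 3, the same 6 were called as with the block (background 9.52%). Then the log2 fold change was 1.96 for Hist1h1c, 2.49 for Hist1h2bc, 0.80 for Hist2h2be, 1.39 for Hist3h2a and 2.14 for Hist1h1d. Within number 3 alone, the 4 listed members were called again, with 2.80 for Hist1h1c, 3.18 for Hist1h2bc, 1.36 for Hist2h2be and 1.55 for Hist3h2a (background 10.1%), and within number 2 alone none was (background 1.76%). Without clone WT29, Hist1h1c and Hist2h2be remained of the 4 (background 7%). Hist1h4i, called higher in total mRNA, was at 18.2, 65.1 and 202 in R98S and 17.6, 71.5 and 118 in WT polysomal RNA (log2 fold change 0.21, SE 0.56), and its sign turned under quantile normalization and on clone means. The H1 members Hist1h1a, Hist1h1b and Hist1h1e had log2 fold changes of −1.35 (SE 0.75), −0.10 (SE 0.69) and −0.18 (SE 0.87), none called, and the sign of the last 2 turned with the block.

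**Figure D2:**
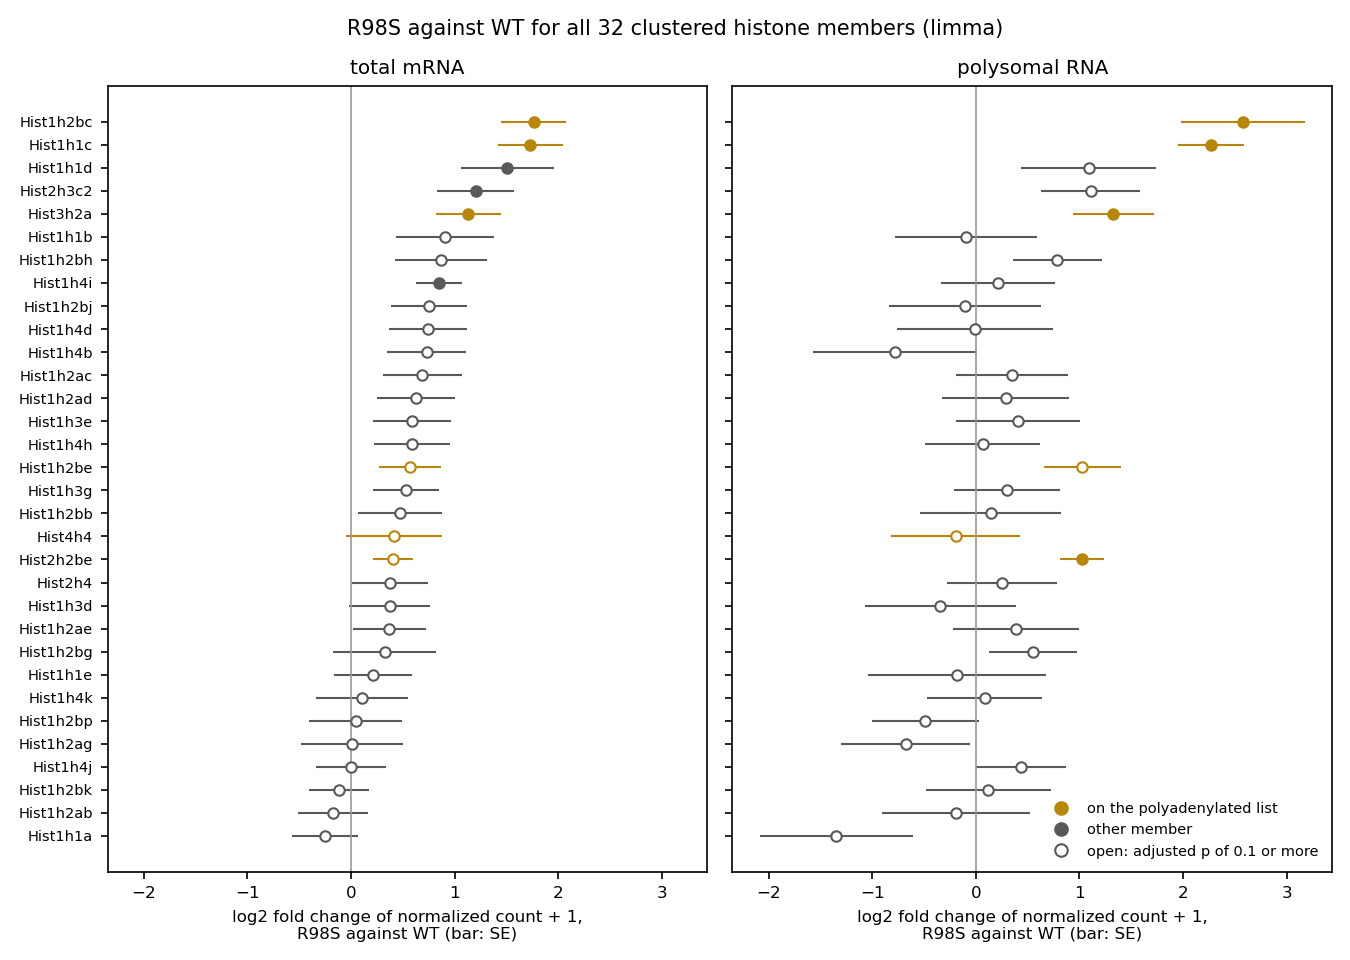
Log2 fold change of normalized count + 1, R98S against WT, with its SE for all 32 members in total mRNA (left) and polysomal RNA (right), from limma on genes with a mean of at least 1. Filled points were called at an adjusted p under 0.1, and the 4 filled points of polysomal RNA are all listed members.

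Summed over members, the normalized counts in R98S were 2.44 times those of WT for total mRNA and 2.92 times for polysomal RNA. For the listed members these ratios were 2.52 and 4.0, and for the other members 1.65 and 1.01. These sums rest largely on Hist1h1c: without it the ratios were 1.58 and 1.79 for all members and 1.56 and 2.74 for the listed members, of which 1.56 lies below the 1.65 of the other members. Without replicate 3 the polysomal ratios were 2.96 for all, 3.20 for the listed and 1.63 for the other members, and within number 3 they were 3.28, 5.34 and 1.10. The listed members summed to 1181 to 3656 in R98S and 581 to 1305 in WT total mRNA. In polysomal RNA they summed to 1198 to 3920 in R98S and 517 to 924 in WT, groups that did not overlap.

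Translational efficiency (TE) was taken as log2 polysomal minus log2 total value in each of 14 matched cultures (8 R98S and 6 WT). By limma, 0 of 8 members were called between R98S and WT (background 0.047%), and 1 had an unadjusted p under 0.05. This was Hist2h2be, with a TE difference of 0.63 (SE 0.21, p = 0.0074, limma adjusted p = 0.555), which was called only where a correlation within clones was estimated. The TE difference was 0.53 (SE 0.36) for Hist1h1c, 0.78 (SE 0.56) for Hist1h2bc, 0.23 (SE 0.37) for Hist3h2a, −0.60 (SE 0.63) for Hist1h4i and −0.58 (SE 1.14) for Hist1h1d. The SE of Hist1h1d was the highest of the 8, and its difference was 0.83 without replicate 3.

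The next comparison set number 3 against numbers 1 and 2. The summed level of the other members in total mRNA was 86.2 to 273 normalized counts in the 11 libraries of numbers 1 and 2 and 57.6 to 182 in the 6 of number 3. In polysomal RNA it was 75.5, 167 and 345 (lowest, median and highest) in the 8 libraries of numbers 1 and 2 and 436, 589 and 1003 in the 6 of number 3. The polysomal groups did not overlap, in either genotype. The share of listed members in the polysomal sum was 82.8 to 92.9% with numbers 1 and 2, but 79.5 to 86.7% in R98S and 41.9 to 62.9% in WT with number 3. The comparison of number 3 with numbers 1 and 2 was added after these values had been seen.

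**Figure D3:**
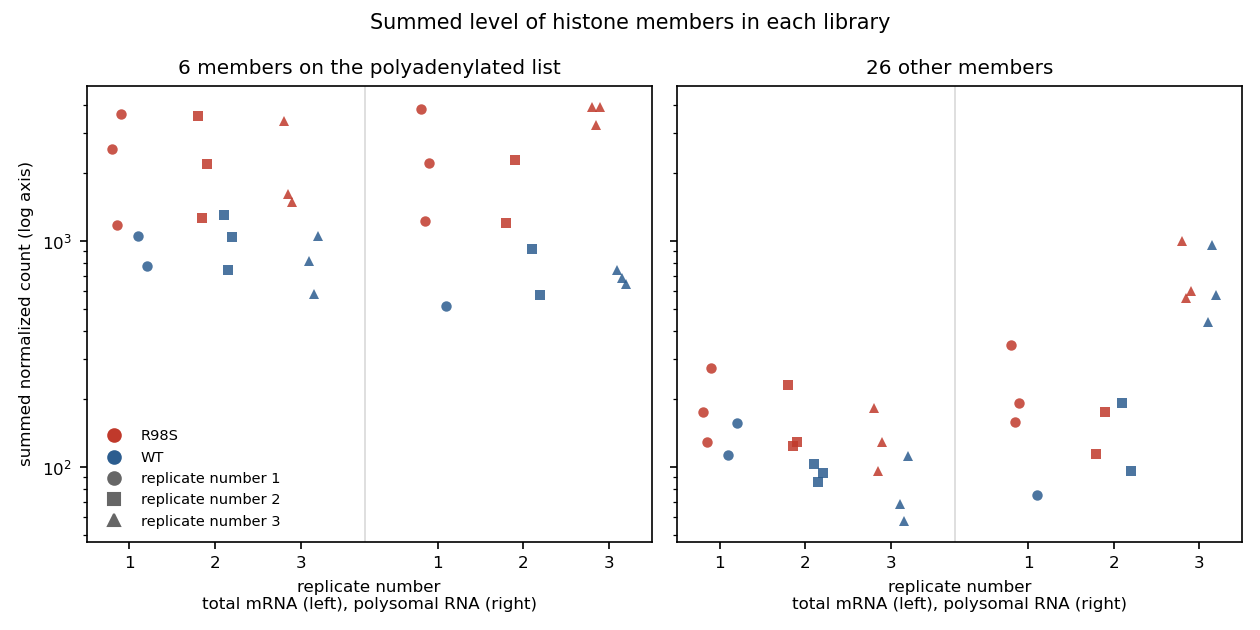
Summed normalized count (log axis) of the 6 listed members (left) and the 26 other members (right) in each library, by replicate number, with total mRNA at the left and polysomal RNA at the right of each panel. The other members reach 436 to 1003 in polysomal libraries of number 3 and at most 345 in all other libraries.

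With genotype in the model and genes of a mean of at least 1, so that all members entered, 26 of 32 members were called higher in polysomal RNA of number 3, against a background of 31.3%, and none lower (background 32.8%). These were 23 of the 26 other members and Hist1h2bc, Hist3h2a and Hist4h4 of the 6 listed. The other members not called were Hist1h3e, Hist1h4k and Hist2h3c2, named after their values were seen. Hist1h2ac, Hist1h2ad and Hist1h2bp, all called, had polysomal means under 1 in numbers 1 and 2 and entered only through number 3, which fixed their direction. Of the remaining 29 members 23 were called higher, and all 29 had a positive fold change, with a median of 1.74, against −0.02 over all genes so selected. In total mRNA none was called higher (background 3.85%), Hist1h1b alone was called lower (background 1.66%, a change of −1.40 on the log2 scale with an SE of 0.39, adjusted p = 0.057 by limma) and the median was −0.25. There 7 members reached a mean of 1 only through numbers 1 and 2 and 1 only through number 3, which fixed their direction, and over the remaining 24 the median was −0.23. For TE, 22 of 32 members were called higher in number 3 (background 26.5%). Of the 24 that reached a mean of 1 in both groups in each table, 15 were called, or 62.5%, as were 63.5% of the short genes described below. In polysomal RNA 23 members were called higher in R98S libraries alone (background 27.3%) and 21 in WT libraries alone (background 23.5%).

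On the log2(normalized count + 1) scale, the largest rises in polysomal RNA of number 3 were those of Hist1h1e and Hist1h4b, which were picked for description after their values were seen. Hist1h1e, the H1.4 linker histone, was at 3.85, 7.88 and 29.4 normalized counts in the 8 libraries of numbers 1 and 2 and at 27.4, 59.5 and 191 in the 6 of number 3 (a change of 2.88 on the log2 scale with an SE of 0.47, adjusted p = 3.8e-05 by limma). Hist1h4b, an H4 gene whose annotated transcript ends at the stem-loop, was at 0, 2.53 and 6.66 and at 17.6, 24.9 and 33.4 (a change of 2.83 on the log2 scale with an SE of 0.37, adjusted p = 4.2e-06 by limma), with no overlap between the groups. The annotated exon of Hist1h4b overlaps 4930558J22Rik on the opposite strand over 56.2% of its bases. Hist1h4i was at 17.6, 37.1 and 79.0 and at 92.3, 117 and 202 (a change of 1.86 on the log2 scale with an SE of 0.30, adjusted p = 3.1e-05 by limma), also without overlap. At a mean of at least 10, number 3 lay fully above for 3 of 14 members (Hist1h4b, Hist1h4i and Hist1h2ae) and 17.1% of all genes. Hist1h4b reached that mean only through number 3. Hist1h2ae (H2A) was at 5.39, 8.38 and 23.9 and at 31.7, 43.8 and 67.9 (log2 fold change 2.20, SE 0.27). Of the listed members, Hist1h1c, Hist2h2be and Hist1h2be did not pass the test, differing by 0.49 (SE 0.27), 0.23 (SE 0.19) and 0.42 (SE 0.34). Hist1h2bc was called, with 1.74 (SE 0.40, limma adjusted p = 0.0011).

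Members are short genes, with coding lengths of 309 to 669 bases, and short genes in general were higher in polysomal RNA of number 3. Of the genes that are no members, 69.0% with a coding length under 700 bases were called higher, with a median log2 fold change of 0.92, against 22.8% and −0.23 of those with 700 bases or more. Among the 29 members that reached a mean of 1 in both groups the share was 79.3% and the median 1.74, against 70.3% and 0.94 of short genes so selected. Among the 10 members that reached a mean of 10 in both groups the share was 70% and the median 1.75. For short genes so selected they were 77.8% and 1.02. In total mRNA 6.32% of the short genes were called higher. Of 10 histone genes outside the clusters, 7 were called higher in polysomal RNA of number 3 (31.3% of all genes, 69.0% of short genes). The list median was 0.63, with 1.66 (SE 0.17) for H3f3a, 1.60 (SE 0.16) for H3f3b and 1.57 (SE 0.16) for H2afz. This count is near the share of short genes. Slbp rose by 0.76 (SE 0.10, limma adjusted p = 5.4e-06). It is 1 of 19 listed genes of histone mRNA processing and turnover. Of these, 7 were called higher and 9 lower in this comparison (backgrounds 31.3% and 32.8%), with a median of −0.18. Of RNAs without poly(A) other than histones, 3 of 18 listed in the tables had a mean of at least 1, and Rny1, a short Y RNA, was called higher at 3.55 (SE 0.42), Rn7sk was at 0.83 (SE 0.46) and Terc at 0.10 (SE 0.38). The part of transcript length, RNA without poly(A) and handling of the number 3 cultures in the histone values was not tested.

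**Figure D4:**
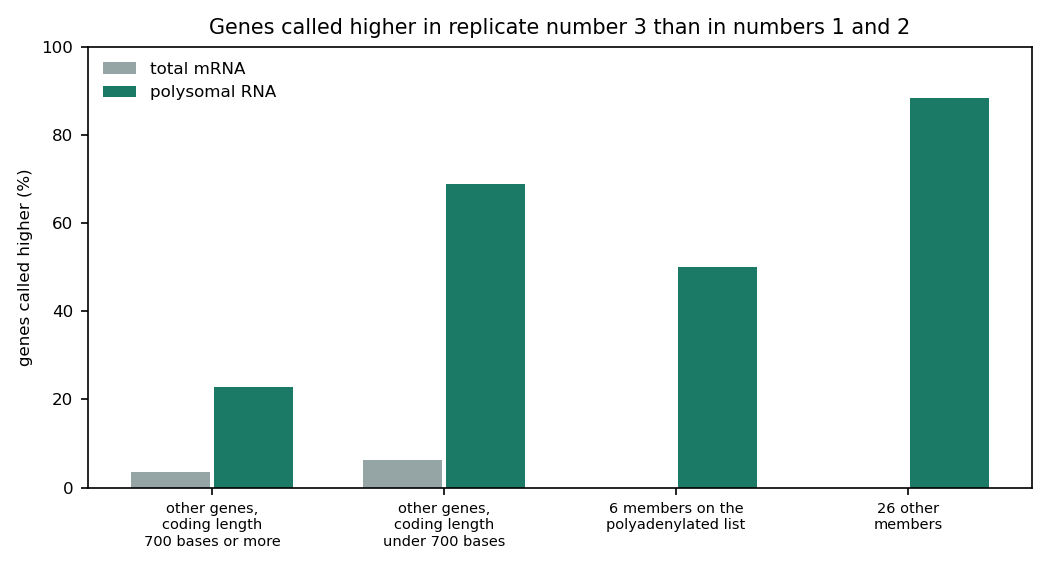
Share of genes called higher in replicate number 3 than in numbers 1 and 2 (limma adjusted p under 0.1, genotype in the model, genes from a mean of 1 upwards), for total mRNA (grey) and polysomal RNA (green), for other genes by coding length and for the members. In polysomal RNA the share was 22.8% of long and 69.0% of short genes, 50% of the listed and 88.5% of the other members, of which 3 entered only through number 3 (87% without them).

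The polysomal to total ratio was set per culture against the median gene, because the tables were normalized separately, and carries no test. Among the 8 members that reached a mean of 10 in each table, the centred log2 ratio averaged highest for Hist1h1d (1.87 ± 2.04, SD, n = 14 cultures), Hist1h4i (1.02 ± 1.33) and Hist1h2bc (0.72 ± 1.22), and lowest for Hist2h2be (0.06 ± 0.47), Hist1h2be (0.17 ± 0.81) and Hist3h2a (0.41 ± 0.74). Hist1h1c was at 0.43 ± 0.77. Of all 10627 genes, 90% lay between −1.51 and 1.08. The SD over cultures exceeded the mean in all 8, and the neighbours in this order did not differ beyond their spread. In cultures of numbers 1 and 2 the ratio was 0.55 ± 1.08 for Hist1h1d, 0.04 ± 0.67 for Hist1h4i and −0.04 ± 0.86 for Hist1h2bc, and in cultures of number 3 it was 3.62 ± 1.65, 2.31 ± 0.66 and 1.73 ± 0.84. Over all genes the 95th percentile was 0.615 with numbers 1 and 2 and 1.89 with number 3, so Hist1h2bc lay within the spread of all genes in both. Hist2h2be stayed near the median gene in both, at −0.01 ± 0.46 and 0.14 ± 0.52.

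Over all other members, the polysomal sum was 0.481 to 1.97 times the total mRNA sum in cultures of numbers 1 and 2 and 4.66 to 16.6 times in the 6 cultures of number 3. The highest was that of WT clone 29, and the remaining 5 cultures of number 3 lay between 4.66 and 6.39. For the listed members the ranges were 0.602 to 1.504 and 0.612 to 2.64 and overlapped. The summed ratio of the other members was thus higher with number 3. Of these members, 7 reached a mean of 1 in total mRNA only through numbers 1 and 2, and 1 only through number 3. For the 7, the choice of members favours a low total mRNA value, and so a high ratio, in number 3. The ratios of these members are therefore a description only. Their median centred log2 ratio was −0.44 to 1.02 in cultures of numbers 1 and 2 and 2.32 to 3.52 in those of number 3. Some members had a high ratio with numbers 1 and 2 too, as Hist1h1e with 1.23 ± 1.48 (SD). By annotation, members whose transcript ends at the stem-loop had summed ratios of 0.63 to 2.67 with numbers 1 and 2 and 7.07 to 19.9 with number 3. In this class Hist1h2ab, Hist1h2ad, Hist1h4b and Hist1h4h reached a mean of 1 in total mRNA only through numbers 1 and 2. Hist1h2bj reached it only through number 3. The difference between the ranges is therefore not support. For members whose transcript runs past it or has an intron they were 0.56 to 1.61 and 0.86 to 3.32, sums that include Hist1h1c. The median centred log2 ratio of this second class was −0.44 to 0.74 with numbers 1 and 2 and 1.35 to 2.54 with number 3, without overlap. For the first class it was −0.08 to 1.12 and 2.71 to 3.56.

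**Figure D5:**
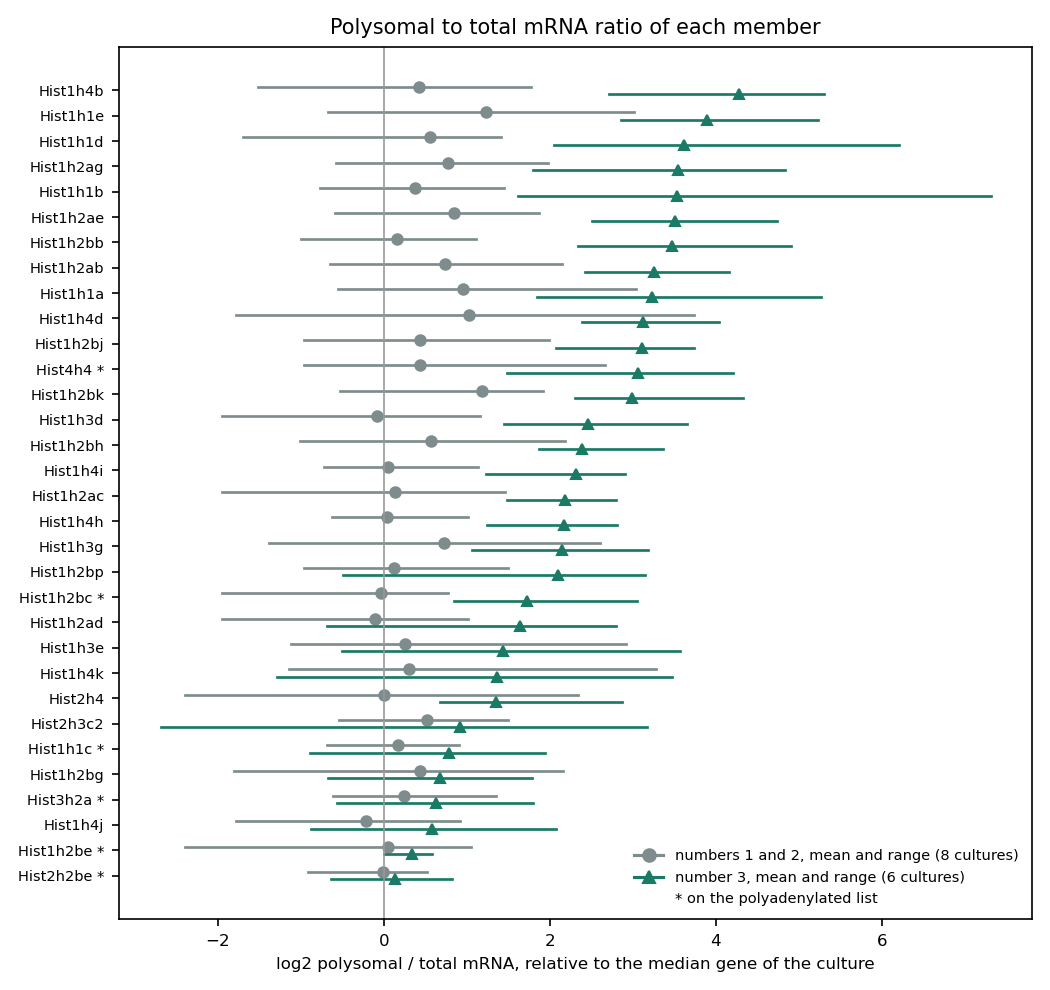
Log2 polysomal to total mRNA ratio of each member relative to the median gene of the culture, as mean and range over 8 cultures of numbers 1 and 2 (grey circles) and 6 cultures of number 3 (green triangles), with asterisks on listed members. Of the listed members, the means of Hist1h1c, Hist2h2be, Hist1h2be and Hist3h2a lie below 1 in both. Those of Hist1h2bc and Hist4h4 reach 1.73 and 3.06 in number 3. Means of most other members lie between 1 and 4 in number 3, but those of Hist1h2bg, Hist1h4j and Hist2h3c2 lie below 1 in both.

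The promoters of members called higher in R98S total mRNA were read from RefSeq (GRCm38.p6), whose table held 29 of the 32 members. Hist1h2bc, Hist2h2be and Hist2h4 were not matched. The 250 bases before the start of an H1, an H2A and an H4 member are shown, with capitals at the CCAAT box, at the letters TATAAA, and at the octamer, ATTTGCAT, on either strand.
Hist1h1c, chr13:23738557-23738806, plus strand: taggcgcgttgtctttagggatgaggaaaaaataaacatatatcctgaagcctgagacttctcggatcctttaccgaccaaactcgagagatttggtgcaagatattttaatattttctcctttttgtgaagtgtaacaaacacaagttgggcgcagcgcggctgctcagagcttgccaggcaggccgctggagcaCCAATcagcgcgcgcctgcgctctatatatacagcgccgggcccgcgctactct
Hist3h2a, chr11:58954435-58954684, plus strand: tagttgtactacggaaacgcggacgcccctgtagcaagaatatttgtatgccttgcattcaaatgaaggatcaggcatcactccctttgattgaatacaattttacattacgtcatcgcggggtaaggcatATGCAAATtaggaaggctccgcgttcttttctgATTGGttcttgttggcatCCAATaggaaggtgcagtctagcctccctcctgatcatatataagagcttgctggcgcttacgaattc
Hist1h4i, chr13:22041363-22041612, minus strand: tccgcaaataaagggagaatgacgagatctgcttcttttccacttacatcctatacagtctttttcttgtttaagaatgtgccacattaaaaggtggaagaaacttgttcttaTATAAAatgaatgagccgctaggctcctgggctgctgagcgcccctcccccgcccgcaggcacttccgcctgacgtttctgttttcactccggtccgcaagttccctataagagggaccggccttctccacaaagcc
In the window of 250 bases before to 50 after the start, CCAAT was held by 23 of 29 members and 37.4% of all promoters, TATAAA by 17 of 29 and 13.6%, and the octamer by 7 of 29 and 1.74%. CCAAT was present in all 22 matched H1, H2A, H2B and H3 members and in 1 of 7 H4 members, among which Hist1h4i held none, and the octamer was found only in H2A (4 of 6) and H2B (3 of 7) members. Hist1h2be has 2 starts in the table, and these counts use the upstream start. The start beside its stem-loop held an octamer, which makes 8 of 29 members and 4 of 7 for H2B. Of the 5 matched members called higher in total mRNA, Hist1h1c and Hist2h3c2 each held 1 CCAAT, Hist1h1d held 1 CCAAT and 3 TATAAA, Hist3h2a held 2 CCAAT and the octamer, and Hist1h4i held TATAAA alone.

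Genes that act with the clustered histones were described from lists written from general knowledge. Of 25 S-phase genes, which make and copy DNA when histones are needed, none was called higher in R98S total mRNA and 8 were called lower (background lower 15.8%), among them Gins3 (log2 fold change −0.91), the ribonucleotide reductase subunit Rrm2 (−1.02) and Pola1 (−0.42). Without replicate 3, 2 were (background 6.03%). In polysomal RNA 3 were called lower (background 5.87%), 11 with the replicate block (background 15.7%) and 9 without replicate 3 (background 9.51%). The median log2 fold change of the list was −0.18 in total mRNA and −0.37 in polysomal RNA, against 0.00 and −0.02 over all genes tested, and was −0.41 in polysomal RNA without replicate 3. Of 19 genes of histone mRNA processing and turnover, 2 were called higher and 5 lower in total mRNA (backgrounds 14.5% and 15.8%), with a list median of 0.04. With the replicate block 3 were higher and 9 lower (backgrounds 18.5% and 19.9%), and without replicate 3, 1 and 2 (backgrounds 5.99% and 6.03%). Mif4gd, an Slbp partner in histone mRNA translation, rose by 0.74 (SE 0.10), Ncbp1, of the nuclear cap-binding complex, rose by 0.42, and Cstf2, a 3′ end cleavage factor, fell by 0.39 on the log2 scale. Npat, the coactivator of histone gene transcription, was called lower, with −0.26 (SE 0.08, limma adjusted p = 0.029). Slbp itself was at 1760, 2348 and 2746 normalized counts in R98S and 2100, 2618 and 4469 in WT total mRNA and was not called (−0.32, adjusted p = 0.106), but was called with the replicate block (adjusted p = 0.046). In polysomal RNA 1 of the 19 was called higher (Mif4gd, 0.72) and 1 lower (Zfp473, −0.86), against backgrounds of 7.66% and 5.87%. With the block 1 was higher and 6 were lower (backgrounds 15.2% and 15.7%), and without replicate 3, 1 and 5 (backgrounds 9.52% and 9.51%). The list median there was −0.10, and −0.02 without replicate 3.

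Of 13 histone chaperones, which carry histones to DNA, 3 were called higher and 2 lower in total mRNA, against backgrounds of 14.5% and 15.8%, with −0.58 for Chaf1a and −0.71 for Asf1b, both used in replication, and 0.41 for Daxx, a chaperone of H3.3. Without replicate 3, 0 and 2 were, against backgrounds of 5.99% and 6.03%. In polysomal RNA none was called by limma, 3 were lower with the block (background 15.7%) and 2 without replicate 3 (background 9.51%). The list medians were −0.05 and −0.24, and −0.20 in polysomal RNA without replicate 3. Of 9 histone genes outside the clusters that were tested, H1f0, a linker histone made outside S phase, was called higher in both fractions (0.61 for total mRNA and 1.04 for polysomal RNA), and Cenpa, the centromeric H3, was called lower in total mRNA (−0.43). These are 1 of 9 higher and 1 of 9 lower in total mRNA, near the background. In polysomal RNA 1 of 9 was called higher (background 7.66%), and 2 with the block (background 15.2%) or without replicate 3 (background 9.52%).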

How the data were processed

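Per the labels and the study's methods, poly(A) RNA libraries (stranded kit) were prepared by the authors from whole cells and from polysomal gradient fractions of the same cultures. Reads were mapped with TopHat2 2.0.11 to mm10 after removal of rRNA and tRNA reads, alignments under a mapping quality of 10 were dropped, and reads were counted per gene with HTSeq. The authors deposited 1 table per fraction of normalized values (signal: read counts divided by DESeq2 size factors). Whole reads could be recovered for 100% of values (tolerance 0.01 read). All sample columns could be mapped to samples. Reads per library ranged from 8831180 to 22059792, and a member with a mean of 1 rests on about 1 read per library, so low members have wide counting error.

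R98S and WT were compared within each table with limma 3.58.1 (R 4.3.3, eBayes with trend) on log2(value + 1) over genes reaching a mean of 10, and TE as the per-culture difference of log2 values over genes reaching it in each table. Fold changes of low genes are understated on this scale. Benjamini-Hochberg adjustment ran over all genes tested, and calls are at an adjusted p under 0.1. Tables were normalized separately, so levels were not tested between them. A fit at a mean of at least 1, the replicate block, clone means, other scalings, left-out replicates and clones, and edgeR 4.0.16 and DESeq2 1.42.0 on recovered reads were alternatives. The replicate block is a term for the replicate number. Same-numbered samples deviated together (correlations of R98S and WT deviations of 0.62, 0.55 and 0.48 in total mRNA and 0.70, 0.67 and 0.87 in polysomal RNA for numbers 1, 2 and 3), so the numbers were taken to pair the samples. The scripts were tested on simulated data.

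Members, listed members and gene lists were chosen with earlier results of these data known. The comparison of replicate number 3 with numbers 1 and 2, the split of genes at a coding length of 700 bases, the sums by replicate number and without Hist1h1c and the lists without number 3 were chosen after seeing the data. Members named are the listed ones, the 10 highest in total mRNA, those called, those with the 3 highest and 3 lowest ratios and those at the threshold, plus up to 3 genes per other list with the smallest adjusted p, Slbp and Npat. Any further gene was named after its values were seen. Stem-loops, exons and coding lengths came from the mm10 genome with GENCODE M21. A 50-base window counted as shared where another gene holds the same letters.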

Additional observations from a re-analysis of the deposited data

Results flagged for a closer look

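In total mRNA of R98S, Hist1h2bg was at 1.00 normalized count in clone 13 number 1, far below the other R98S libraries (7.27 to 33.4). In total mRNA of WT, Hist1h4i was at 54.9 in clone 29 number 1, far above the other WT libraries (17.5 to 29.7). Among 44 groups of libraries examined for a value far from the rest, these were the 2 found, and chance gives about 1 in 20, or 2.2.

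Of the 38 clustered histone symbols under the level required in total mRNA, 18 had a mean of at least 1 in polysomal RNA, data that the choice of members did not use. Hist1h3c had the highest, with 8.96 normalized counts against 0.859 in total mRNA. Its polysomal mean was 3.21 in libraries of numbers 1 and 2 and 16.6 in those of number 3.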

How the results depend on the processing

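Fewer members were called within single replicate numbers: 2, 1 and 2 in total mRNA for numbers 1, 2 and 3 (6.33%, 1.16% and 3.79% of all genes higher), against 5 over all libraries, and 0 in polysomal RNA for number 2, against 4. Leaving out a replicate or clone gave 4 to 7 calls in total mRNA (5.99 to 12.9% of all genes higher) and 2 to 6 in polysomal RNA (3.62 to 9.52%), with 2 without clone WT29 and 3 without replicate 1 or clone R98S11, R98S35 or WT28, where Hist3h2a was lost. Quantile normalization also gave 3 in polysomal RNA, without Hist3h2a (adjusted p = 0.140 by limma), and the median over members fell from 0.47 to 0.16. With the replicate block, 5 members were called for total mRNA and 6 for polysomal RNA, and it changed no other call between genotypes among members. For TE, an estimated correlation within clones (−0.25) gave 1 call, against 0, while the share of all genes called higher went from 0.047% to 1.02%. For number 3 in total mRNA, 1 member was called lower over all libraries, none within R98S (0) or WT (0) alone, where 0 and 0.0697% of all genes were lower, or at a mean of at least 10 (0). Without replicate 1, 2 of 32 were called lower (background 4.6%). Without replicate 2, 4 of 32 were called, of which 1 was higher (backgrounds 9.67% higher and 7.6% lower). These counts are near or below the shares over all genes. At a mean of at least 10, which removes members, 11 of 14 were called for number 3 in polysomal RNA (background 35.4%) and 3 of 8 for TE (background 30.9%, near the members' share). Of these 14, 4 reached that mean only through number 3, and 7 of the remaining 10 were called. That is 70%, below the 77.8% of short genes so selected. For TE, 3 of the 7 members that reached it in both groups were called, or 42.9%, against 72.2% of short genes.

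Some members that were not called changed sign. In total mRNA these were Hist1h2be (−0.10 within number 2), Hist2h2be (−0.062 within number 2) and Hist1h2bg (−0.23 within number 1, −0.17 within number 3, −0.23 to 0.82 with a replicate or clone left out). In polysomal RNA they were Hist1h1b (0.11 with the replicate block, −0.60 to 0.66 with a replicate or clone left out), Hist1h1e (0.19 with the block, −0.79 to 0.51) and Hist1h4i (−0.0051 under quantile normalization, −0.013 on clone means, −0.073 within number 2, −0.44 to 0.47). For TE they were Hist1h1d (0.0090 within number 2, −1.37 to 0.83), Hist3h2a (−0.29 within number 2), Hist1h2be (−0.049 to 1.10) and Hist1h2bg (−0.026 to 0.80). The cause was not tested. The median centred ratio of the listed members (0.41 over 5) became 0.97 with classes taken from the annotation over all members, which is another set of genes. Depth limits what can be said of the 24 members with a mean under 10 in total mRNA.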
